A study of Mus musculus with 9 samples.

Results

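Expression of GFP-TTP in TTP-deficient macrophages was compared with expression of GFP alone. Tristetraprolin (TTP, encoded by Zfp36) is an RNA-binding protein, and the comparison asks which RNAs differ in abundance when it is supplied to cells that lack it. All genes were members, and the libraries were chosen by the construct named in their titles: 3 GFP-TTP and 3 GFP libraries, 6 of the 9 in the series. Of the 25494 genes with fitted library values, 11977 had a test in the authors' deposited comparison of TTP with GFP.

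Both groups derive from bone marrow of mice with a disrupted Zfp36 gene. The bone marrow-derived macrophages were immortalized with human c-Myc and the oncogene HRasG12V, selected for CD11b and F4/80, and transduced with a vector that carries both the tetracycline regulator and the inducible insert. The insert was GFP in the control line and GFP fused to the coding sequence of wild-type TTP in the other. Every library received doxycycline at 1 µg/ml for 6 h and lipopolysaccharide (LPS), a bacterial ligand of Toll-like receptor 4, at 1 µg/ml for 1 h. The remaining 3 libraries carried GFP-TTP-AA, mutated at the serines through which the kinase MK2 inactivates TTP. Their fold changes serve here only as values set beside those of GFP-TTP. These libraries also enter the authors' fit, and with it the mean normalized counts and the errors. Libraries without doxycycline were not analysed here, so differences between the transduced lines that existed before induction and effects of the protein cannot be told apart. The labels do not say whether replicates came from separate transductions, so p-values measure the spread between these libraries.

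TTP binds AU-rich elements in the 3′UTR of short-lived mRNAs and recruits the machinery that removes their poly(A) tail. Its best known targets encode Tnf and other inflammatory mediators. Within the first hour of LPS the p38 and MK2 kinases phosphorylate TTP, which lowers its activity while the same signal induces its targets. A second early event in LPS-treated macrophages is the production of type I interferon, which acts through STAT2 and IRF9 on genes whose promoters carry an interferon-stimulated response element.

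Both kinds of sequence were counted in the results below, and examples of each are printed here. The first set holds 3′UTR sites of mRNAs known as TTP targets, with the AU-rich core in capitals (GENCODE M21 transcripts, GRCm38, each in the sense of the mRNA). Tnf lies at chr17:35199671-35199699 and Dusp1 at chr17:26506159-26506187 on the minus strand, while Cxcl2 lies at chr5:90905316-90905344 and Ier3 at chr17:35822532-35822558 on the plus strand.
Tnf: tatttatttaTTATTTATTtatttgctta
Cxcl2: gagagttcacTTATTTATTtatctatgta
Dusp1: gagctggtccTTATTTATTtaacaccccc
Ier3: gtgtatgtaaTATTTATtctaacttat

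The second set holds promoter windows of genes called lower in GFP-TTP macrophages, with the letters GAAANNGAAA or their reverse complement TTTCNNTTTC in capitals (RefSeq promoters, GRCm38.p6, read along the gene's strand). This 10-letter pattern is the core of an interferon-stimulated response element. Slfn5 (chr11:82951937-82951966, plus), B2m (chr2:122147538-122147567, plus), Gbp3 (chr3:142559995-142560024, plus) and Stat2 (chr10:128270266-128270295, plus) are followed by Ddx58 (chr4:40239804-40239833, minus), Oas1g (chr5:120887606-120887635, minus), H2-T23 (chr17:36032806-36032835, minus) and Irgm1 (chr11:48871425-48871454, minus).
Slfn5: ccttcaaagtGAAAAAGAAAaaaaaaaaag
B2m: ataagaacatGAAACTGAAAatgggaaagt
Gbp3: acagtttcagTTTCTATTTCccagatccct
Stat2: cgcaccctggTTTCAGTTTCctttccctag
Ddx58: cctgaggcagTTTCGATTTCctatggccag
Oas1g: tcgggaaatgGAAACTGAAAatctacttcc
H2-T23: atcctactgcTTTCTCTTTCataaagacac
Irgm1: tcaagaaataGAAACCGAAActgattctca

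Level, log2 fold change and error have the following meaning throughout. The library values in the authors' deposited table are fitted means of their model, so a value per library given here is a fitted normalized count, which holds a term for the replicate number but no scatter of its own. The ratio of GFP-TTP to GFP is therefore the same at every replicate number, and whether the fitted values of the groups overlap adds no evidence to the fold change and its SE. Log2 fold changes are those of GFP-TTP against GFP in the authors' deposited table, each with the standard error (SE) of its DESeq2 fit over 3 libraries per group. The mean normalized count of a gene is taken over all libraries of that fit, those of GFP-TTP-AA included. A gene is called when its DESeq2 adjusted p is under 0.05, and "rose" or "fell" is used for called genes alone. The sums of fitted means, which stand in for depth, were 21.5 M in GFP-TTP replicate 1, 29.2 M in GFP replicate 2 and at least 36.3 M in the other 4 libraries. All 10 macrophage markers examined had a mean fitted level above 10 normalized counts, with Lyz2 (lysozyme 2) the highest. Per kb of transcript, the summed markers of B cells, T cells, mast cells, dendritic cells, fibroblasts, erythroid cells, endothelium and epithelium each stayed under 100 in every library. The neutrophil list summed to 254 to 386 in GFP and 255 to 389 in GFP-TTP, with Elane, Ltf and Mpo under 10 normalized counts. The megakaryocyte list summed to 1442 to 1518 in GFP and 775 to 822 in GFP-TTP through Pf4, which macrophages also express, while Gp9, Itga2b and Ppbp were under 10.

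Zfp36 itself was examined first. Its fitted normalized counts were 1742, 1421 and 889 in GFP replicates 1 to 3 and 1783, 1444 and 911 in the GFP-TTP replicates. The log2 fold change was 0.04 ± 0.17 (DESeq2 adjusted p 0.930). The count of the gene therefore does not separate the lines and gives no check of the label. Exons of Zfp36 overlap Gm44710 on the other strand, and reads of the disrupted gene and of the transgene share this count.

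A total of 1097 of the 11977 genes were called, or 9.16% of those tested, with 489 higher (4.08%) and 608 lower (5.08%) in GFP-TTP macrophages. Falls were larger than rises. The median log2 fold change was -0.61 among genes called lower and 0.38 among genes called higher, and 132 genes fell by at least 1 on the log2 scale where 38 rose by as much. Changes under 0.5 made up 573 of the 1097 calls. With each Wald score scaled down by the robust SD of all scores, 1.51, 249 genes remained called, and the share of calls that were lower went from 55.4% to 68.7%.

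The direction and size of the responses differed with abundance, and the number called did so little. Abundance is the mean normalized count, which includes the GFP-TTP-AA libraries and is not the level in the compared lines alone. The share of genes called was similar across classes of the mean normalized count, at 8.30% below 100, 11.4% from 100 to 300, 10.5% from 300 to 1000, 8.07% from 1000 to 3000, 8.62% from 3000 to 10000 and 8.79% above 10000. Below a mean of 100, 102 genes fell and 27 rose, so that 79.1% of the calls were lower. From 3000 to 10000, 64 fell and 135 rose, so that 32.2% were lower. Above 10000 both directions had 27 genes.

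The size of the changes declined with abundance. The median absolute log2 fold change of called genes was 0.91 below a mean of 100 and 0.33 above 10000, while the median SE went from 0.23 to 0.09. A change of at least 1 was reached by 36.4% of the called genes below 100 and by 40.5% from 100 to 300, against 2.01% from 3000 to 10000. Calls with a low count therefore needed a larger change. The smallest called change was 0.63 below 100 and 0.22 above 10000. When genes were ranked by count per kb of transcript instead, 72.7% of calls were lower in the lowest of 5 classes of equal size and 38.6% in the highest.

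**Figure D1:**
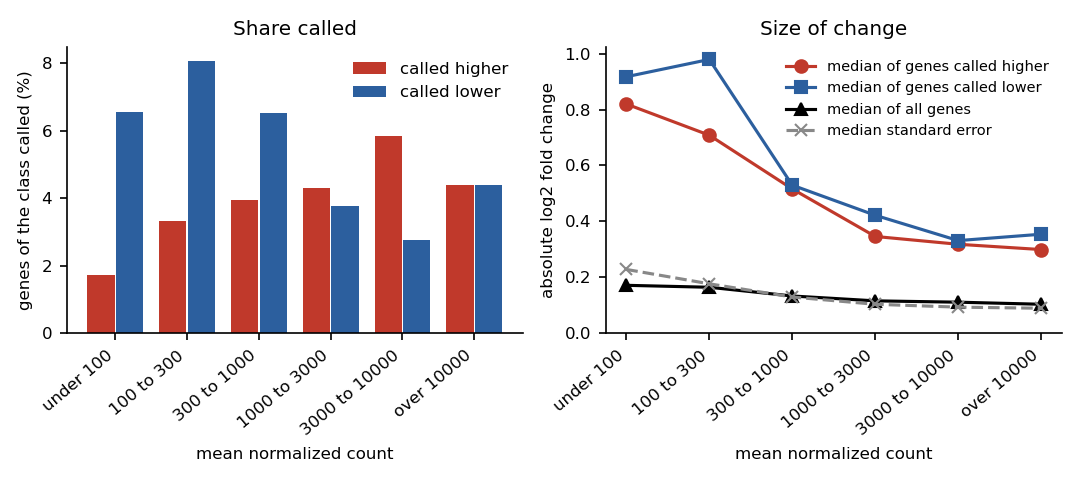
Left, percent of the genes in each class of the mean normalized count that were called higher (red) or lower (blue) in GFP-TTP macrophages. Right, median absolute log2 fold change of genes called higher, called lower and of all genes, with the median standard error; lower calls outnumber higher ones below a mean of 1000, and the median size of lower calls goes from 0.92 to 0.35.

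Position in the genome touched these shares. Chromosomes 3, 10 and 19 had median log2 fold changes of -0.20, -0.13 and 0.20 over 575, 562 and 427 genes, where the median over all genes was 0.01. They held 334 of the 1097 calls. Leaving them and the Y chromosome out, the share called was 8.00% below a mean of 100 and 5.45% above 10000, and 77.6% and 31.0% of those calls were lower. The shift of direction with abundance was thus present without these chromosomes, while the share called among abundant genes was lower.

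Many genes of the interferon response fell and none rose. Of 58 tested effectors, the antiviral and regulatory proteins that type I interferon induces, 26 fell, 0 rose and 32 were not called, against a background of 5.08% lower. Their median log2 fold change was -0.41, beside 0.01 over all genes, and 52 of the 58 values were negative. The list was written with earlier results of these data known, so its count is a description.

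Lgals3bp, a secreted glycoprotein that binds galectins, fell most. Its fitted normalized counts were 784, 697 and 746 in GFP and 111, 97.997 and 106 in GFP-TTP replicates 1 to 3. The log2 fold change was -2.81 ± 0.14 (DESeq2 adjusted p 9.3e-86). Slfn5, a member of the Schlafen family, had 499, 426 and 666 in GFP and 103, 87.1 and 137 in GFP-TTP, a log2 fold change of -2.27 ± 0.16 (adjusted p 3.5e-45). Exons of Slfn5 overlap another gene on the other strand.

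Sp100, a component of nuclear bodies that restrict DNA viruses, changed by -1.90 ± 0.15. Cmpk2, a mitochondrial nucleotide kinase, had fitted counts of 212, 203 and 476 in GFP and 51.6, 48.9 and 116 in GFP-TTP. The term for replicate 3 more than doubled the values of the others, and the log2 fold change was -2.03 ± 0.21. Usp18, the protease that removes ISG15 and dampens interferon signalling, followed the same order, with 288, 312 and 454 in GFP and 82.3, 88.4 and 130 in GFP-TTP. Its log2 fold change was -1.80 ± 0.21 (DESeq2 adjusted p 7.1e-15), and its exons overlap another gene on the other strand. Oas1g, which synthesizes the 2′,5′-linked oligoadenylates that activate RNase L, changed by -1.47 ± 0.19.

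Not all effectors were called, and 15 remained called lower with the scores scaled by their spread. The highest means in the list belonged to Slfn2 and Bst2, whose log2 fold changes were -0.02 ± 0.17 and -0.11 ± 0.11, and neither was called. In the interferon, sensor, STAT and IRF, GTPase and class I groups joined (125 tested genes), 45 of the 78 members with a mean under 1000 fell and 9 of the 47 with a mean of 1000 or more. The median was -0.62 in the former and -0.09 in the latter. The share did not decline throughout, since 3 of the 7 members above 10000, H2-K1, H2-D1 and B2m, fell.

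The list of nucleic acid sensors and related genes followed the effectors, with 8 of 21 lower (38.1%, beside 5.08% of all genes) and 0 higher (median -0.17). Ifih1, the sensor MDA5 for long double-stranded RNA, had fitted counts of 196, 195 and 444 in GFP and 38.7, 38.2 and 87.7 in GFP-TTP. The term for replicate 3 was the highest here too. The log2 fold change was -2.34 ± 0.18 (DESeq2 adjusted p 2.3e-35). Ddx58 (RIG-I) and Dhx58 (LGP2), its relatives, changed by -1.37 ± 0.17 and -1.18 ± 0.20. The interferon-inducible DNA-binding genes of the PYHIN family on chromosome 1 gave the other calls, from -1.01 ± 0.23 for Ifi204 to -0.52 ± 0.18 for Mndal, which was named after its value was seen. The most abundant genes of the list, Unc93b1 and Dhx9, had -0.01 ± 0.11 and 0.16 ± 0.09 and were not called.

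Of the transcription factors that carry the interferon signal, 5 of 13 STAT and IRF genes fell (38.5%, beside 5.08% of all genes, median -0.19). Irf9, the DNA-binding subunit of the complex ISGF3, had fitted counts of 403, 467 and 546 in GFP and 214, 246 and 290 in GFP-TTP. Its log2 fold change was -0.91 ± 0.16 (DESeq2 adjusted p 6.2e-07). Irf7, the factor that amplifies interferon production, was scarce, with 51.7, 55.9 and 92.1 in GFP and 22.8, 24.5 and 40.7 in GFP-TTP (log2 fold change -1.17 ± 0.23). Stat2, a partner of Irf9, changed by -0.61 ± 0.19. Stat6, which mediates the response to interleukin 4, changed by -0.31 ± 0.10, but it lies on chromosome 10 as does Stat2, and only 3 members were called after each chromosome was centred on its median.

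The list of interferon and cytokine receptors with JAK kinases gave 1 call among 27 genes (3.70%, beside 9.16% of all genes). It was Il10ra, the ligand-binding chain for interleukin 10, at -0.69 ± 0.23. The most abundant genes of this list, Csf1r and the interleukin 1 receptor antagonist Il1rn, were at -0.03 ± 0.12 and 0.10 ± 0.18. The interferon-inducible GTPases, which attack the vacuoles of intracellular pathogens, had 5 of 10 members lower and all 10 values negative (median -0.57), but 0 were called with scaled scores and 0 against a null of up to 0.25. Gbp3 changed by -0.93 ± 0.21 and Irgm1, with the highest mean, by -0.45 ± 0.12. Gbp3 and Gbp7 lie on chromosome 3, and 3 of 6 members on other chromosomes fell.

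Genes of antigen presentation were also among those that fell. For MHC class I and the immunoproteasome, 10 of 23 members fell (43.5%, beside 5.08% of all genes) and 0 rose (median -0.33). H2-K1, a classical class I heavy chain, had fitted counts of 10313, 13217 and 12082 in GFP and 6712, 8539 and 7875 in GFP-TTP. The log2 fold change was -0.61 ± 0.10. B2m, the light chain shared by all class I molecules, had 26012, 31242 and 25305 in GFP and 17923, 21370 and 17463 in GFP-TTP. Its log2 fold change was -0.53 ± 0.10 (DESeq2 adjusted p 6.8e-06), a fall of 30.8% in a highly abundant mRNA.

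The other heavy chain, H2-D1, changed by -0.53 ± 0.09 and the non-classical H2-T10 by -1.51 ± 0.18. Psmb8, a catalytic subunit of the immunoproteasome, changed by -0.53 ± 0.09, and its exons overlap another gene. Canx and Calr, the general chaperones of the endoplasmic reticulum in this list, had 0.20 ± 0.08 and 0.02 ± 0.09 and were not called. For class II presentation 2 of 7 genes fell, H2-DMb1, which loads peptides, by -1.07 ± 0.13 on the log2 scale and Ctss, the cathepsin that trims the invariant chain, by -0.72 ± 0.13. Class I, Oas, PYHIN, Schlafen and Gbp genes belong to families of similar sequence, so their individual values are uncertain where the authors placed a read more than once.

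**Figure D2:**
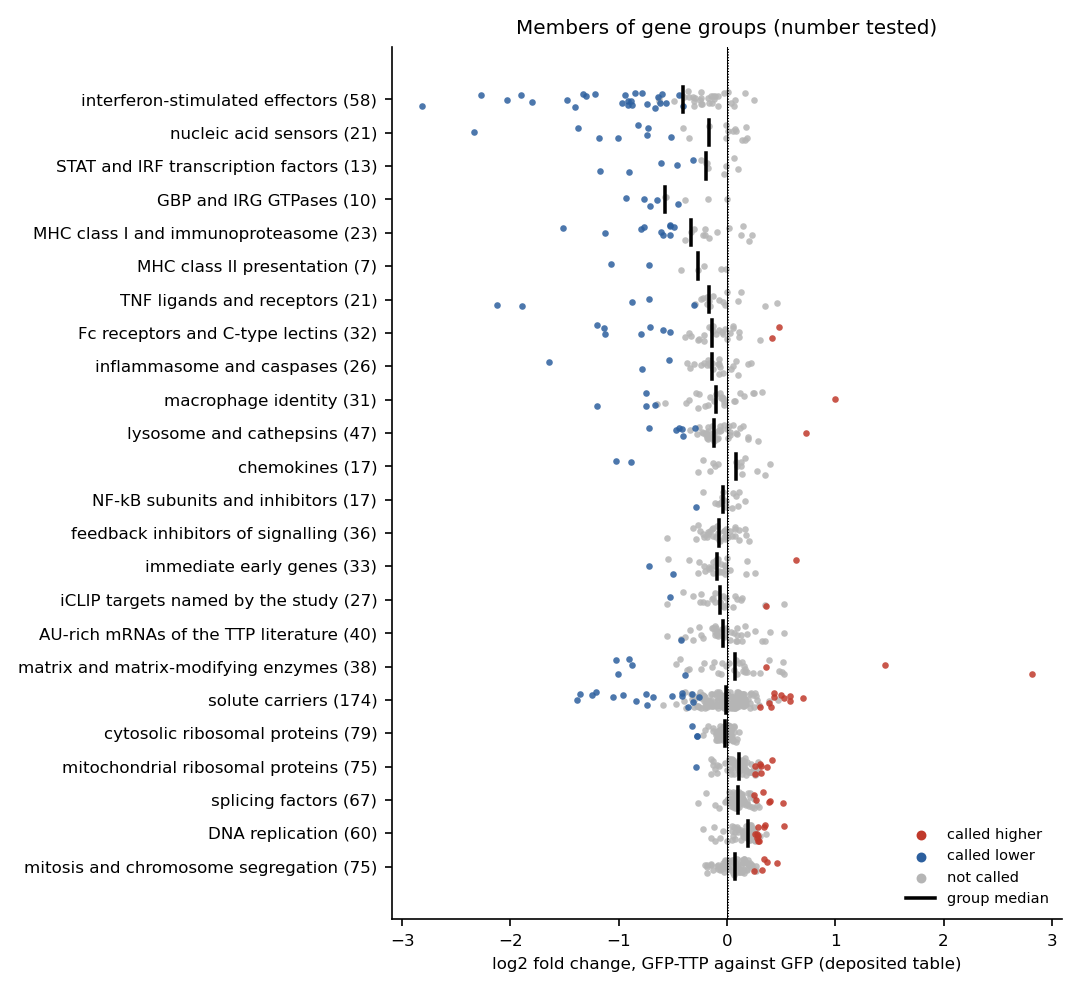
Log2 fold change (GFP-TTP against GFP) of every tested member of 24 gene groups, coloured by call, with the group median as a black bar and the median of all genes as a dotted line. Interferon, sensor, GTPase and class I groups extend to the left without a red point, feedback inhibitors lie around 0 without a call, and DNA replication, splicing and mitochondrial ribosomal genes lie slightly to the right.

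The response-element pattern shown above was common in the promoters of these genes, both among those called and those not called. The window from 250 bases before to 50 after the start site held GAAANNGAAA on either strand in 355 of 9216 tested genes matched to RefSeq (3.85%). Among genes called lower it was 47 of 462 (10.2%) and among genes called higher 15 of 397 (3.78%). In the joined interferon and class I groups, 22 of 42 matched members called lower held it, and 19 of 59 not called. Outside these groups 25 of 420 genes called lower held it (5.95%). Letters in a window are a description and do not show that a factor binds there.

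The 25 genes outside these joined groups that fell and held GAAANNGAAA were led by Zfp941, a zinc finger gene, at -1.94 ± 0.21. Ctss was among them, as was Ppp1r15a, the phosphatase subunit that ends the integrated stress response, at -0.57 ± 0.17. In the fitted values the class of interferon genes also varied with the replicate number. Over the 125 joined genes the median absolute difference between replicates ran from 0.22 to 0.32 on the log2 scale, against 0.39 for the condition.

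**Figure D3:**
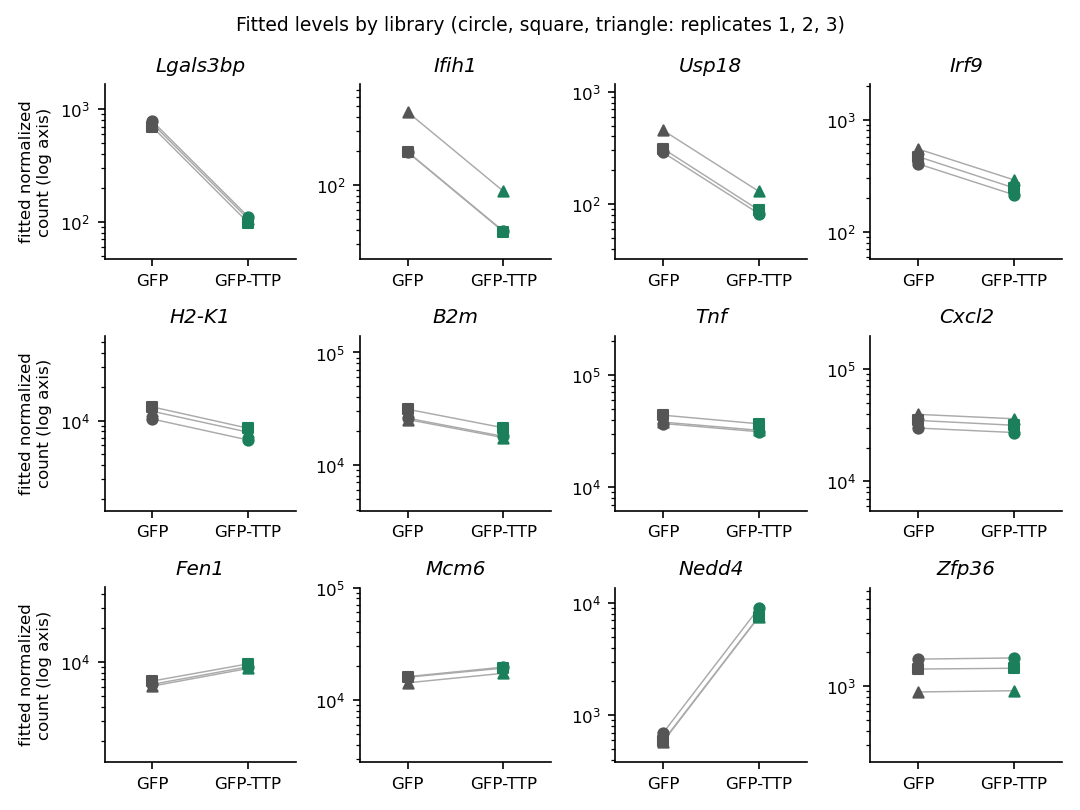
Fitted normalized counts (log axis, each spanning the same ratio) of 12 genes in the 3 GFP and 3 GFP-TTP libraries, with lines joining equal replicate numbers. The lines are parallel because the deposited values are fitted; Lgals3bp, Ifih1, Usp18, Irf9, H2-K1 and B2m are lower and Nedd4 is higher in GFP-TTP, while Tnf, Cxcl2 and Zfp36 were not called.

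Groups of mRNAs linked to TTP had shares of calls near or below the 9.16% of all genes. Of 27 mRNAs that the study named from its binding data (iCLIP, a crosslinking method that maps contacts of a protein on RNA), 1 rose and 1 fell. This was 7.41% of the list. The median log2 fold change of the 27 was -0.06. The called genes were B2m, described above, and Spp1 (osteopontin), which rose by 0.36 ± 0.13 (DESeq2 adjusted p 0.0457). The list includes Actb, which the paper treated as a negative control for binding. Its binding counts pool GFP-TTP with GFP-TTP-AA, and the paper found the mutant bound more often at its top targets. Of 40 AU-rich mRNAs known from work on TTP, 1 fell (2.5% called), Zfp36l2, a relative of TTP, by -0.42 ± 0.12, and its exons overlap another gene.

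Tnf, whose site is printed above and whose 3′UTR of 764 bases held 8 copies of TATTTAT, had fitted counts of 36880, 43738 and 37933 in GFP and 31154, 36678 and 32092 in GFP-TTP. The log2 fold change was -0.24 ± 0.17 (DESeq2 adjusted p 0.438), with a 95% interval from -0.56 to 0.09. For Cxcl2, a neutrophil chemokine, the counts were 29815, 34856 and 39471 in GFP and 27206, 31575 and 36073 in GFP-TTP. The difference was -0.12 ± 0.23 and its interval ran from -0.58 to 0.33. These intervals leave room for changes of moderate size, so a difference was not detectable rather than absent.

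Feedback inhibitors of signalling gave 0 calls among 36 genes by DESeq2 (median -0.07). Ier3, an inhibitor of cell death induced early, had 8732, 10742 and 7433 in GFP and 8501, 10382 and 7248 in GFP-TTP, at -0.03 ± 0.16 on the log2 scale. Dusp1, the phosphatase that switches off p38, had 3556, 2352 and 1404 in GFP and 2407, 1580 and 952 in GFP-TTP. Its values differed more between replicate numbers than between the lines, and the log2 fold change was -0.56 ± 0.23 (DESeq2 adjusted p 0.110). Tnfaip3 (A20) was at -0.31 ± 0.18. At an unadjusted p under 0.05 the feedback list held 2 genes.

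Immediate early genes had 1 higher and 2 lower among 33 (9.09% called, beside 9.16% of all genes). These were Fosl1 at 0.64 ± 0.19, Klf2 at -0.72 ± 0.18 and Btg1 at -0.50 ± 0.14. Fosl1 lies on chromosome 19 and Btg1 on chromosome 10. Among 17 chemokines 2 fell, Cxcl16 by -1.02 ± 0.19 and Pf4 by -0.89 ± 0.19 on the log2 scale. In the list of 17 NF-kB genes, Tbk1, a kinase that activates IRF3, was the single call at -0.29 ± 0.10. Of the 12 members outside chromosomes 3, 10 and 19, 0 were called. Of 16 interleukins and colony-stimulating factors Ebi3, a subunit of interleukins 27 and 35, fell by 1.13 with an SE of 0.19. Together the groups of targets, chemokines, interleukins, NF-kB, feedback and immediate early genes held 147 genes, of which 2 rose and 8 fell (6.80% called, beside 9.16% of all genes).

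Precision was uneven in these groups. Of 2922 genes with a mean of at least 3000, 49 had an SE above 0.2, and 14 of the 49 belonged to the 147. Cxcl2, Icam1, Nlrp3 and Nfkbiz were examples, with an SE of 0.23 where the median for such abundant genes was 0.09. Their values also varied more with the replicate number, by a median of 0.58 between the highest and lowest replicate on the log2 scale for the 14 and 0.29 for all abundant genes. The authors' model already holds a date term that splits the libraries in this way. The range is therefore a separate description and does not measure the spread behind the SE.

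Ligands and receptors of the TNF family held 2 changes of at least 1 on the log2 scale. Of 21 tested, 5 fell (23.8%, beside 5.08% of all genes), 0 rose and 16 were not called (median -0.16). Tnfrsf21 (death receptor 6) had 288, 207 and 185 in GFP and 65.6, 46.9 and 42.2 in GFP-TTP, a log2 fold change of -2.13 ± 0.18. Tnfrsf13b (TACI), the receptor for BAFF, had 717, 779 and 687 in GFP and 192, 208 and 185 in GFP-TTP, a log2 fold change of -1.89 ± 0.14. Tnf receptor 1 (Tnfrsf1a) changed by -0.31 ± 0.10, and Tnf receptor 2 (Tnfrsf1b) was at -0.02 ± 0.23 without a call.

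In the inflammasome and caspase list 3 of 26 fell (11.5%, beside 5.08% of all genes). Ripk3, the kinase of necroptosis, had 299, 274 and 235 in GFP and 95.4, 86.8 and 74.9 in GFP-TTP, a log2 fold change of -1.64 ± 0.18. Pycard, the adaptor ASC, had a log2 fold change of -0.79 ± 0.09 and Nlrc4, a sensor of flagellin, of -0.54 ± 0.12. Nlrp3 and Cflar were at -0.06 ± 0.23 and -0.14 ± 0.22, neither called. The BCL2 family gave 0 calls among 22 genes by DESeq2 and 1 at an unadjusted p under 0.05, with Mcl1, its most abundant member, at -0.35 ± 0.17.

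Genes of macrophage identity moved in both directions. Emr1 (Adgre1), which encodes the F4/80 antigen used to select the cells, had 21178, 15667 and 14036 in GFP and 12538, 9208 and 8323 in GFP-TTP. The log2 fold change was -0.75 ± 0.14. Fcgr1, the high-affinity receptor for IgG and itself inducible by interferon, changed by -1.20 ± 0.18 and C1qc, a chain of complement C1q, by -0.75 ± 0.23. Cebpa, a myeloid transcription factor, rose by 0.99 ± 0.22. Lyz2 and Csf1r did not pass, Lyz2 at -0.28 ± 0.10. Of the 31 genes of this list, 4 fell and 1 rose (median -0.11). These are 12.9% and 3.23%, beside 5.08% and 4.08% of all genes.

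Fc receptors and C-type lectins had 7 lower and 2 higher of 32 (21.9% and 6.25%, beside 5.08% and 4.08% of all genes). The falls included Pirb, an inhibitory receptor for MHC class I, at -1.14 ± 0.18 and Clec10a, a lectin for galactose, at -1.13 ± 0.22. The rises were Clec5a at 0.41 ± 0.08 and Fcgr2b, the inhibitory Fc receptor, at 0.48 ± 0.15, which was named after its value was seen. Toll-like receptors and their adaptors gave 1 call of 22 (4.55%, beside 9.16% of all genes), Ticam1 (TRIF) at -0.47 ± 0.14. Tlr2 and Cd14 were at -0.12 ± 0.22 and 0.12 ± 0.11. Among 47 genes of the lysosome 6 fell and 1 rose (12.8% and 2.13%, beside 5.08% and 4.08% of all genes). However, 4 of the 7 calls lie on chromosomes 3 and 10, among them Ctss.

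Matrix, adhesion and cytoskeletal genes held large changes in both directions. Timp1, an inhibitor of matrix metalloproteinases, was scarce and rose by 2.81 ± 0.23, from 13.1, 13.0 and 13.6 in GFP to 91.9, 90.1 and 95.0 in GFP-TTP. Its group of 38 genes had 3 higher (7.89%, beside 4.08% of all genes), Timp1, Col23a1 (1.46 ± 0.19) and Spp1. The group had 5 lower (13.2%, beside 5.08%), with Adam3 at -1.02 ± 0.21 and Nid2 at -0.87 ± 0.18, and 0 lower with scaled scores. Arhgap4, with 201, 167 and 139 in GFP and 26.1, 21.6 and 18.1 in GFP-TTP, had the largest fall of all called genes, -2.94 ± 0.22.

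Cdc42bpa, a kinase that acts with Cdc42 on actomyosin, changed by -2.63 ± 0.19, and Arhgap44 rose by 1.52 ± 0.21. Exons of Arhgap4, Cdc42bpa and Arhgap44 overlap genes on the other strand. Of 90 septins, kinesins, myosins and tubulins 4 rose and 4 fell (4.44% each), near the 4.08% and 5.08% of all genes. Tubb2a, a beta-tubulin, changed by -1.52 ± 0.13 while Tubb5, the most abundant, was at 0.07 ± 0.09. Among 174 solute carriers 17 fell and 10 rose (9.77% and 5.75%, beside 5.08% and 4.08% of all genes). With scaled scores 5 were called lower and 0 higher. Slc22a15 on chromosome 3 was at -1.38 ± 0.22 and Slc8a1, a sodium and calcium exchanger, at -1.35 ± 0.17, and 13 of the falls and 9 of the rises lie outside chromosomes 3, 10 and 19.

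G protein-coupled receptors had 4 higher and 3 lower of 58 (6.90% and 5.17%), near the shares over all genes. F2rl3 (protease-activated receptor 4, a thrombin receptor) had 48.9, 54.5 and 32.0 in GFP and 221, 245 and 145 in GFP-TTP, a log2 fold change of 2.18 ± 0.22. Gpr125 rose by 2.08 ± 0.23 from a low level. Among 144 HECT and RING ubiquitin ligases 4 rose and 9 fell (2.78% and 6.25%), near the 4.08% and 5.08% of all genes. Nedd4, a HECT ligase for membrane proteins, had the most significant change of all genes, from 696, 589 and 581 in GFP to 8977, 7545 and 7509 in GFP-TTP. The groups were about 13.0-fold apart, with a log2 change of 3.70 ± 0.14 (adjusted p of the DESeq2 fit 9.2e-140). Rnf217 changed by -2.19 ± 0.18, and the interferon-inducible Trim30a by -0.85 ± 0.16.

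Most groups of growth and of basic gene expression had small positive medians. In DNA replication 10 of 60 genes rose and 0 fell, beside a background of 4.08% higher, and the median was 0.20. Fen1, the flap endonuclease, had 6337, 6778 and 6111 in GFP and 9077, 9637 and 8767 in GFP-TTP, a log2 fold change of 0.53 ± 0.08. Mcm6, a subunit of the replicative helicase and the most abundant gene of the list, had 16132, 15926 and 14206 in GFP and 19590, 19198 and 17276 in GFP-TTP, a log2 fold change of 0.29 ± 0.09. Mcm5 and Mcm3 rose by 0.35 ± 0.09 and 0.30 ± 0.09. Fen1 and Pola2 lie on chromosome 19. On chromosomes other than 3, 10 and 19 there were 8 rises among 56 genes, and with each chromosome centred on its median 3 members were called higher. With scaled scores, and against a null of up to 0.25, 1 member was called.

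Splicing factors had 6 of 67 higher (8.96%, beside 4.08% of all genes) and 0 lower (median 0.10). Prpf19 was at 0.52 ± 0.08 and Hnrnpul2 at 0.39 ± 0.09, both on chromosome 19, and Prpf8 at 0.33 ± 0.09 on chromosome 11. Mitochondrial ribosomal proteins had 7 of 75 higher (9.33%) and 1 lower (median 0.11), and 64 of the 75 values were positive. Of these calls Mrpl43, Mrpl16 and Mrpl21 lie on chromosome 19 and the single fall, Mrps21, on chromosome 3. Aminoacyl-tRNA synthetases had 3 of 34 higher (8.82%, beside 4.08% of all genes). Among them were the mitochondrial enzymes Mars2 (0.44 ± 0.08) and Yars2 (0.32 ± 0.10), and all 3 lie on other chromosomes. Mitotic genes had 5 of 75 higher (6.67%, beside 4.08% of all genes), with Incenp and Cdca5 on chromosome 19.

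Cytosolic ribosomal proteins had a median absolute log2 fold change of 0.04, where all genes had 0.13. Of 79 genes 3 fell, Rps26, Rpl41 and Rps15, all on chromosome 10, by 0.28 to 0.33 on the log2 scale, and after centring by chromosome 0 were called. Subunits of oxidative phosphorylation had 4 higher of 86 (4.65%, beside 4.08% of all genes), with Ndufs8 at 0.84 ± 0.10, Ndufv1 and Cox8a on chromosome 19. The single fall was Ndufc1 on chromosome 3, at -0.28 ± 0.08. Ndufs8, a subunit of complex I, had 4778, 5829 and 5454 in GFP and 8510, 10307 and 9728 in GFP-TTP. In lipid handling Fads1 and Fads2, desaturases that lie next to each other on chromosome 19, rose by 0.62 ± 0.10 and 0.61 ± 0.12, and Acaca and Fasn, of fatty acid synthesis on chromosome 11, by 0.27 ± 0.08 and 0.28 ± 0.09. Sterol synthesis and the NRF2 response had no called gene among 26 and 27 by DESeq2, and 1 and 3 genes had an unadjusted p under 0.05.

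The chromosomal pattern was among the broadest features of the comparison. Chromosome 19 held 129 of the 489 genes called higher (26.4%) with 3.57% of the genes tested, and 30.2% of its 427 genes were called higher and 1.17% lower. Chromosome 3 held 109 of the 608 genes called lower (17.9%), and 13.2% of its genes had a positive log2 fold change. Chromosome 10 held 82 (13.5%). Along chromosome 19 the median log2 fold change in 4 successive blocks of equal gene number was 0.15, 0.28, 0.19 and 0.21, and along chromosome 3 it was -0.20, -0.21, -0.20 and -0.18. On chromosome 10 it was -0.11, -0.09, -0.11 and -0.23, so the last block, from 94.1 Mb on, was lowest.

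These shifts were small for a single gene. Of the genes called on chromosome 19, 34 changed by at least 0.5 and 3 by at least 1. The Y-linked genes Eif2s3y, Ddx3y, Uty and Kdm5d all fell, by 0.87 to 1.21 on the log2 scale. Copy number was not measured in these libraries, and its part in the chromosomal pattern was not tested. With each chromosome centred on its median 270 genes were called higher and 477 lower, and 681 of these 747 were among the 1097. The effectors of the interferon response, which lie mostly elsewhere, had 24 of 54 members lower outside chromosomes 3, 10 and 19.

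**Figure D4:**
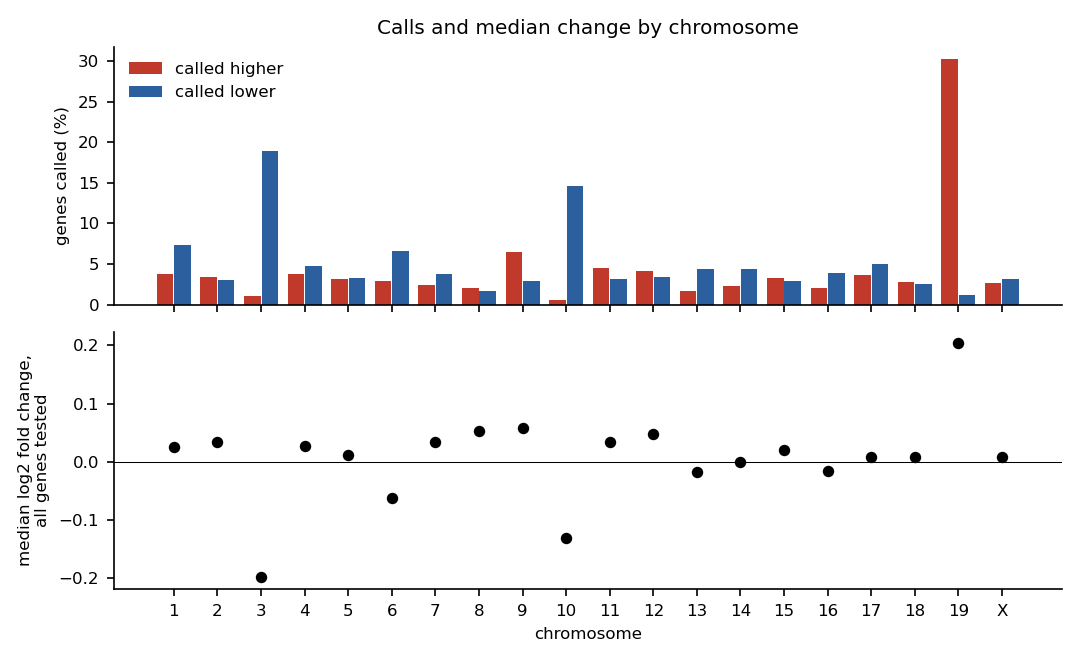
Top, percent of the tested genes of each chromosome called higher (red) or lower (blue). Bottom, median log2 fold change over all tested genes of each chromosome; chromosome 19 stands at 0.20, chromosome 3 at -0.20 and chromosome 10 at -0.13.

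Most called genes belonged to none of the groups. The 51 groups held 2320 of the tested genes and 255 of the 1097 called. Among the others, the largest changes in each abundance class were taken by rule. Above a mean of 10000 Atp1b3, a beta subunit of the sodium pump, rose from 21993, 30648 and 22807 to 49291, 68190 and 51191, a log2 fold change of 1.17 ± 0.13, and Lyz1, a close copy of Lyz2, changed by -1.23 ± 0.14. Cd9, a tetraspanin, rose by 0.48 ± 0.12.

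From 3000 to 10000 the leading genes were Pcdh7, a protocadherin, at 1.599 ± 0.13 and Tgm2, a transglutaminase, at -1.35 ± 0.17, both with exons that overlap another gene. From 1000 to 3000 Clstn1 rose by 1.16 ± 0.10, while Cd72, an inhibitory lectin-like receptor, had 2098, 2292 and 1683 in GFP and 474, 514 and 381 in GFP-TTP. Its log2 fold change was -2.14 ± 0.13 (DESeq2 adjusted p 4.0e-54), and its exons overlap another gene. Smpdl3a, a phosphodiesterase, changed by -2.06 ± 0.15. From 300 to 1000 the metalloproteinase Amz1 (2.47 ± 0.17), the semaphorin receptor Plxna4 (2.18 ± 0.20), protein kinase C beta (Prkcb, 2.06 ± 0.18) and the VEGF receptor Flt1 (1.91 ± 0.16) rose, while Cpq, a carboxypeptidase (-2.33 ± 0.18), and 2510009E07Rik (-1.55 ± 0.14) fell. Exons of Amz1, Plxna4 and Cpq overlap other genes.

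Below a mean of 300 large falls were those of Sh3d19 (-2.23 ± 0.21), Adgb (-2.28 ± 0.23) and Nbea (-2.21 ± 0.23). Jam3, an adhesion molecule (1.55 ± 0.18), Tgif2 (1.54 ± 0.23) and Mn1 (1.92 ± 0.23) rose. By biotype, 1058 of the calls were protein coding, and 9.66% of the 10947 protein-coding genes were called. Long intergenic RNAs had 9 calls of 181 and the 131 small nucleolar RNAs had 0 by DESeq2, with 7 at an unadjusted p under 0.05. Their median means were 84.3 and 129 normalized counts, against 1315 for protein-coding genes.

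The AU-rich motif of the TTP site was then counted in 3′UTRs of at least 100 bases. TATTTAT was present in 29.1% of 10209 tested protein-coding genes, in 33.9% of those called lower and in 21.8% of those called higher. The longer core TTATTTATT was in 7.52%, 8.12% and 5.23%, and the pentamer ATTTA in 69.7%, 75.1% and 62.5%. The median 3′UTR was longer among genes called lower (1271 bases) than among those called higher (968 bases), and these shares are not adjusted for length.

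Genes without TATTTAT had a median log2 fold change of 0.02, those with 1 copy -0.01, those with 2 or 3 copies -0.05 and those with 4 or more -0.05. Of the 128 genes with at least 4 copies 10 fell and 0 rose by DESeq2. This was 7.81% called, beside 9.81% of genes without the motif, of which 5.06% fell. Their 3′UTRs differed in length, with a median of 3406 bases against 782.5. Without chromosomes 3, 10, 19 and Y the median log2 fold changes of the 4 classes were 0.03, 0.00, -0.04 and -0.05. Within 3′UTRs of 500 to 1500 bases on those remaining chromosomes, 5.29% of genes with the motif and 3.34% without it were called lower, and from 1500 to 3000 bases it was 4.31% and 4.75%. Below 500 bases it was 2.70% and 4.18%, and above 3000 bases 4.65% and 3.86%, so the order changed between lengths. The share called higher was smaller with the motif at each length, from 2.06% against 4.11% at 500 to 1500 bases to 2.34% against 3.52% at 1500 to 3000 bases. Lgals3bp, Sp100, Cmpk2, Irf9, H2-K1 and B2m had no copy of TATTTAT in the 3′UTR used, Ifih1 and Usp18 had 1 copy each and Slfn5 had 2.

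The same genes are given for GFP-TTP-AA against GFP, a comparison that shares the GFP libraries, so the values stand side by side and no likeness is drawn from them. Lgals3bp was at 0.78, Ifih1 at 1.36, Usp18 at -0.24, Irf9 at 0.07, H2-K1 at 0.16 and B2m at 0.25 on the log2 scale for GFP-TTP-AA. The median of the interferon effectors was 0.16, of MHC class I 0.14 and of DNA replication 0.01, where GFP-TTP had -0.41, -0.33 and 0.20. Nedd4 was higher than in GFP in both, at 1.89 for GFP-TTP-AA and 3.70 for GFP-TTP.

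Finally, the replicate number was set beside the condition. Over all tested genes the root mean square log2 difference was 0.28 for GFP-TTP against GFP and 0.34, 0.37 and 0.41 between the pairs of replicate numbers, and 170 genes changed by at least 1 with the condition where 199 to 276 did so between replicate numbers. The median range between replicates was 0.32 over all genes. It was 0.60 for nucleic acid sensors, 0.59 for macrophage identity genes, 0.55 for chemokines and 0.38 for cytosolic ribosomal proteins.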

How the data were processed

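RNA from 9 libraries of sorted TTP-deficient macrophages was depleted of ribosomal RNA and sequenced, and the 6 libraries of GFP and GFP-TTP were compared here. Per the labels and the methods, the authors trimmed reads with Trim Galore, aligned them to GRCm38 with TopHat2 (version 2.0.12 in the labels), counted them per Ensembl gene with HTSeq and fitted DESeq2 1.6.3 with library date and condition as terms. Strand use in counting is not given in the sources used here. The deposited library values (unit signal) are fitted means on the count scale without scatter: all 9 columns have 4 nonzero dimensions. The authors' deposited comparison holds log2 fold changes with their SE, the Wald score, the p-value and its Benjamini-Hochberg adjustment. These columns come from the authors' own test, and they were used because the deposited library values allow no new fit. The SE did not exceed 0.235, and 379 genes had an SE within 0.001 of the largest. The median of their mean normalized counts was 30.1, but the abundant Csf1 (mean 6667, SE 0.2346) was among them. Whether the authors kept the shrinkage of fold changes that is the default of this DESeq2 version is not given in the sources used here.

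Library values were divided by a factor per library, the median ratio over genes with a fitted mean of at least 10. Classes of mean count had edges at 100, 300, 1000, 3000 and 10000. The 51 gene groups, the markers and the naming rule were chosen with earlier results of these data known. Named genes were Zfp36, up to 6 called members of each group by p plus the 2 with the highest mean, the 4 largest rises and falls per abundance class, the iCLIP genes and the 2 largest changes per direction and class outside groups. Gene models came from GENCODE M21, promoters from RefSeq (GRCm38.p6). The steps were run in Python 3.11.15 with pandas 2.3.3 and scipy 1.17.1 and tested on simulated data. A few items are not reported here.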

Additional observations from a re-analysis of the deposited data

How the results depend on the processing

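No paired analysis was possible because the values given per library come from a fitted model and hold no scatter, while that model already had a date term that splits the libraries as the replicate numbers do. Fits that leave out a replicate or drop the block were likewise not run.

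Of the 1097 genes called, 249 (78 higher and 171 lower) remained when Wald scores were scaled by their central spread and 243 (61 and 182) against a null of up to 0.25 on the log2 scale. With centring by chromosome 747 genes were called, 681 of them among the 1097, and 270 were higher. In the order central spread, then null of 0.25, the counts called lower were 15 and 14 for interferon-stimulated effectors, 3 and 4 for nucleic acid sensors, 2 and 2 for STAT and IRF factors, 0 and 0 for GTPases, 3 and 3 for TNF ligands and receptors, 3 and 3 for Fc receptors and lectins, 0 and 3 for matrix genes, 5 and 7 for solute carriers and 1 and 1 for the lysosome. Counts called higher were 0 and 0 for solute carriers and 1 and 1 for DNA replication. MHC class I had 4 lower under the null of 0.25. With the same centring 3 STAT and IRF factors were lower and 3 DNA replication genes higher. With a mean of at least 100, 3 GTPases and 3 matrix genes were lower. Without genes that overlap another gene's exons, a setting chosen after seeing the data, 3 STAT and IRF, 5 class I and 2 matrix genes were lower and 5 solute carriers higher. Without chromosomes 3, 10 and 19, also chosen after seeing the data, 3 STAT and IRF, 3 GTPase, 3 matrix and 2 lysosome genes were lower. Among the 144 genes named, 2 that were not called changed sign when centred by chromosome, Calr to -0.0315 and Tlr2 to 0.0803.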
